A study of Mus musculus with 6 samples.

Results

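Trh, the gene for the precursor of thyrotropin-releasing hormone (TRH), was chosen by its fall between DKK + dox and DKK arrays of differentiating mouse ESCs. It is 1 of 18193 genes named by probe sets with a single gene symbol, and 1 probe set (1418756_at) reads it. The cells were A2.Snail, an A2lox-derived ESC line in which doxycycline (dox) induces Snail. They were taken off feeder cells for 1 passage and differentiated in suspension, and every culture contained DKK, an inhibitor of Wnt signaling. DKK + dox cultures were given dox at 250 ng/mL on day 2 and DKK cultures were not, and RNA was collected 6, 12 and 24 hours later, on days 2.25, 2.5 and 3. With 1 Affymetrix array for each condition and time, differences between arrays have no replicate check and were given no p-value. No line without the Snail transgene was treated with dox on these arrays, so effects of dox and of Snail cannot be told apart.

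TRH is a short amidated peptide best known from hypothalamic neurons, where it stimulates the pituitary to release thyroid-stimulating hormone. Convertases cut it from a precursor that carries several copies, carboxypeptidases trim the ends, glutaminyl cyclase closes the N-terminus and Pam forms the C-terminal amide. The peptide acts through Gq-coupled receptors and is destroyed by peptidases. Snail is a zinc finger repressor that binds E-boxes and lowers junction genes, such as those for E-cadherin, claudins and occludin, during EMT.

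Array medians were 53.5 to 63.7, and a reading of 37.2, which 37.5 to 41.3 percent of probe sets did not exceed, served as the low-signal limit. Pou5f1 (Oct4), a marker of pluripotent cells, lay between 5672 and 6764. For Snai1, the readings were 29.6, 18.8 and 14.5 in DKK + dox, against 32.9, 16.6 and 10.9 in DKK. These are all below the limit, and it was not analysed here whether that probe set can detect the transgene, so Snai1 does not check the labels.

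Promoter sequence is shown for Trh because Snail is a DNA-binding repressor, and for Cldn7 and Cldn6 because these tight junction genes had the next largest falls at 24 hours. The windows span 250 bases before to 50 bases after a transcription start in RefSeq (GRCm38.p6) and read 5′ to 3′ on the strand of the gene. They are chr6:92244601-92244900 (minus strand) for Trh, chr11:69965171-69965470 (plus strand) for Cldn7 and chr17:23679115-23679414 (plus strand) for Cldn6. In the claudin windows capitals mark the Snail-type E-box CAGGTG on either strand. In the Trh window, without that motif, capitals mark a general E-box, a nuclear receptor motif and a TATA-like motif.
Trh: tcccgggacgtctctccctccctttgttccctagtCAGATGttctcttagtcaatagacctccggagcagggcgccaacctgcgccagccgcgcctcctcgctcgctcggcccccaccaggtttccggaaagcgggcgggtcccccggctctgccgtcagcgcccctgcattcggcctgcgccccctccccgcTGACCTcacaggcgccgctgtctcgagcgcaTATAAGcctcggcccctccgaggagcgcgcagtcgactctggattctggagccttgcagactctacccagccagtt
Cldn7: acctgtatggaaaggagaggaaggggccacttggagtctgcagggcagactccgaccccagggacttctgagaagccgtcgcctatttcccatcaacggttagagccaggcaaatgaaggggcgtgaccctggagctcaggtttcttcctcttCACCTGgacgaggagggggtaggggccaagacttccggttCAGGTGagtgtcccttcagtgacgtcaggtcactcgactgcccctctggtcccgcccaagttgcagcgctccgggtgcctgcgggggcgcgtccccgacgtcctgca
Cldn6: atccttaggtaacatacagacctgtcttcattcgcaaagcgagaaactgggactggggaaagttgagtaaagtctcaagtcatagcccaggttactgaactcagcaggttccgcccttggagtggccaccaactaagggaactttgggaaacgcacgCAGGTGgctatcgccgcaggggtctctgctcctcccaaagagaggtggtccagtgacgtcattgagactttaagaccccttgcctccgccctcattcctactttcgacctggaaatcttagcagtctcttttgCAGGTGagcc

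The Trh window had 0 matches to CAGGTG on either strand. It had 1 match to the general E-box CANNTG, which began 215 bases before the transcription start. The motif TGACCT, the core of binding sites for thyroid hormone receptors and their relatives, began 57 bases before the start. The TATA-like motif TATAAG began 26 bases before it, and these matches did not overlap. Among 32851 promoter windows searched on both strands, 20.2 percent held CAGGTG. The general E-box, which includes CAGGTG, was in 72.3 percent, the nuclear receptor motif in 16.3 percent and the TATA-like motif in 7.43 percent.

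Unlike Trh, Cldn6 had 2 matches to CAGGTG, and Cldn7 had 2 in the window shown and 0 in its other window. At least 2-fold lower in DKK + dox at 24 hours were 324 of 14755 tested genes (2.2 percent), 249 of them with a listed promoter. Of these, 132 (53.0 percent) had CAGGTG in a window, and Trh was among the 117 that did not. The motif was present for 22.3 percent of the 11807 tested genes with a listed promoter. It was present for 44 of 336 genes (13.1 percent) among those at least 2-fold higher at 24 hours, which were 3.12 percent of tested genes. At 6 hours the share was 28.8 percent (15 of 52) among genes at least 2-fold lower and 27.3 percent (9 of 33) among those higher. At 12 hours it was 48.6 percent (123 of 253) and 15.9 percent (21 of 132). These shares were not tested, and a window without the letters says nothing about sites elsewhere.

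The intensity of Trh in DKK + dox was 1103 at 6 hours, 204 at 12 hours and 341 at 24 hours. In DKK it was 1458 at 6 hours, 2034 at 12 hours and 3254 at 24 hours. All 6 readings were above the low-signal limit. Ordered by level, the arrays ran from DKK at 24, 12 and 6 hours to DKK + dox at 6, 24 and 12 hours. The smallest step between neighbours in this order separated DKK from DKK + dox at 6 hours (a ratio of 1.32), and the largest separated DKK + dox at 6 hours from DKK + dox at 24 hours (a ratio of 3.24). Since Trh was picked for its fall, this order only describes it. Without replicates, no step could be set against a spread. In these bulk cultures, fewer cells with Trh and less Trh RNA per cell cannot be told apart.

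**Figure D1:**
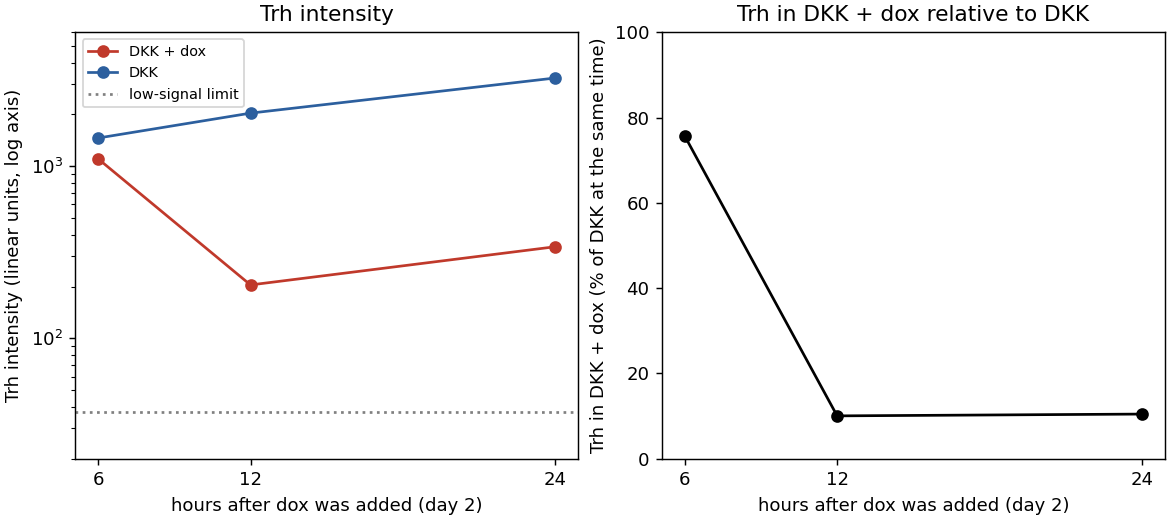
Left, Trh intensity (log axis) by hours after dox in DKK + dox (red) and DKK (blue), 1 array per point, with the low-signal limit dotted. Right, DKK + dox as a percent of DKK at the same time, which was 75.6 percent at 6 hours, 10.0 percent at 12 hours and 10.5 percent at 24 hours.

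Relative to DKK, Trh in DKK + dox was at 75.6 percent at 6 hours, 10.0 percent at 12 hours and 10.5 percent at 24 hours. These correspond to differences of -0.40, -3.19 and -3.18 in log2(intensity + 20.6), an offset that understates changes of low genes. At 6 hours, Trh ranked 1498 from the lowest of the tested genes and lay within the range of the central 95 percent (-0.67 to 0.41). At 12 and 24 hours its difference was the lowest of all. Next came Rasal1 at -2.92 at 12 hours and Cldn7 at -2.78 at 24 hours. At least 2-fold lower were 0.468 percent of tested genes at 6 hours and 2.25 percent at 12 hours. Since the gene was picked for this fall, the ranks only describe it.

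**Figure D2:**
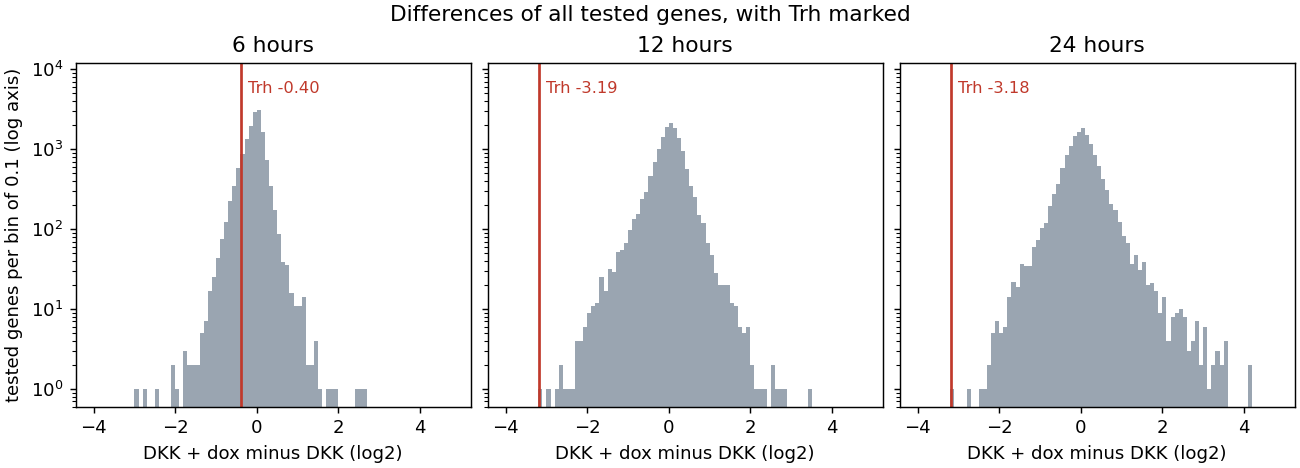
Histograms of the DKK + dox minus DKK difference (log2) of tested genes at 6, 12 and 24 hours, with genes per bin of 0.1 on a log axis and Trh as a red line. Trh is within the bulk at 6 hours (-0.40) and the lowest gene at 12 hours (-3.19) and 24 hours (-3.18).

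The difference arose mostly between 6 and 12 hours. Over that interval the log2 difference changed by -2.79, and from 12 to 24 hours by 0.011. In DKK + dox, the 12 hour reading was 18.5 percent of the 6 hour reading, a 5.40-fold fall. Spread evenly over those 6 hours, this would be a halving every 2.47 hours. Trh had the 35th lowest difference between these arrays, and 3.08 percent of genes were at least 2-fold lower. In DKK the 12 hour reading was 1.39 times that at 6 hours.

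From 12 to 24 hours, Trh increased 1.67-fold in DKK + dox and 1.60-fold in DKK. The step in log2 units was 0.68 in DKK + dox, within the central 95 percent of genes (-0.69 to 0.84). It was 0.67 in DKK, above the central 95 percent (-0.54 to 0.57). Over the whole DKK course, Trh was 2.23-fold higher at 24 than at 6 hours, 1 of 371 genes (2.51 percent) at least 2-fold higher. On the log2 scale the difference was 1.15, and 42.6 percent of tested genes were higher at 24 hours by any amount. Of 6 epiblast genes 5 were higher, with a median of 0.46. Of 5 pluripotency factors shared by naive and primed cells 3 were higher, with a median of 0.049. Of 9 naive pluripotency factors 1 was higher, with a median of -2.84.

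At 6 hours Trh stood near the middle of the genes that were lower later. Its log2 difference then was -0.40, against a median of -0.41 (quartiles -0.63 and -0.22) over the 324 genes at least 2-fold lower at 24 hours, and 168 of these were lower than Trh. At 12 hours it was at -3.19, against a median of -1.10. As a share of its own 24 hour difference, Trh was at 12.5 percent at 6 hours and 100 percent at 12 hours. The medians of the 324 genes were 31.5 percent (quartiles 17.2 and 43.7) and 82.8 percent (quartiles 53.0 and 104). A low share at 6 hours is partly built in for Trh, since the share is taken of the 24 hour difference for which the gene was picked. No test was made on these values.

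**Figure D3:**
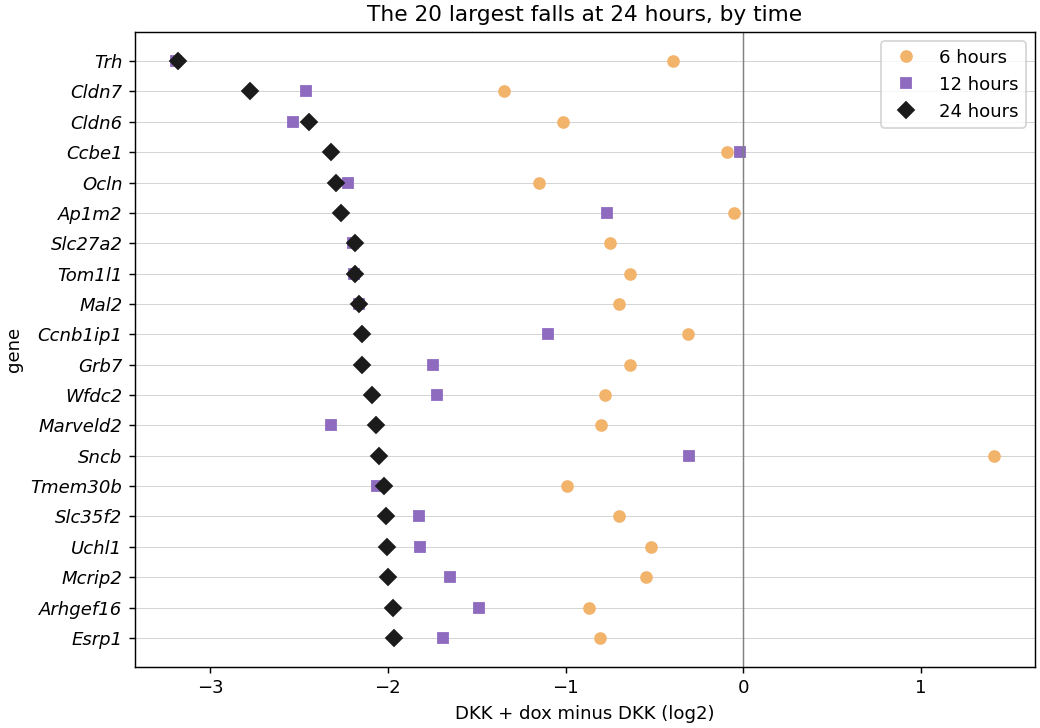
DKK + dox minus DKK (log2) at 6 hours (circles), 12 hours (squares) and 24 hours (diamonds) for the 20 genes with the largest falls at 24 hours. Trh is at -0.40 at 6 hours, against -1.35 for Cldn7 and -1.15 for Ocln; its 12 and 24 hour symbols overlie each other. Ccbe1 and Sncb were at the lowest deposited value, 1, in DKK + dox at 24 hours, and Sncb also in DKK at 6 hours.

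Of 8 junction genes listed as targets of Snail, 5 fell in the limma fit (Cdh1, Ocln, Cldn6, Cldn7 and Epcam), against 6.38 percent of all genes tested. The other 3 did not pass (Cldn3, Cldn4 and Tjp1). The list was made with earlier results of these arrays known. The paper names Cldn6 as lowered on the same arrays, so the count of 5 only describes these genes. The median log2 difference of the 8 genes was -1.09 at 24 hours. Cldn7 read 89.1, 183 and 224 in DKK + dox, against 258, 1099 and 1655 in DKK, and was thus at 34.5, 16.7 and 13.5 percent of DKK at the 3 times. Cldn6 was at 47.9, 16.0 and 17.6 percent. Ocln, which encodes occludin, was at 39.7, 17.2 and 17.2 percent. These 3 were further below DKK than Trh at 6 hours and less far below it at 12 and 24 hours. Cdh1, which encodes E-cadherin, was at 77.3, 48.1 and 49.2 percent, near Trh at 6 hours and less reduced later. Epcam, an epithelial adhesion gene, was at 86.7, 48.1 and 44.1 percent, above Trh at each time. The log2 difference of Cdh1 was nearly the same at 12 hours (-1.05) and 24 hours (-1.02), as was that of Trh.

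Genes that process, receive or destroy TRH did not fall with it as a group. Of 53 such genes and regulators of Trh listed, 47 were measured and 43 were tested by limma for a DKK + dox minus DKK difference proportional to hours. Adjusted over all genes, 5 rose, 3 fell and 35 did not pass an adjusted p of 0.05. Over all genes tested, 8.32 percent rose and 6.38 percent fell (14.7 percent in either direction). The median difference of the 43 genes at 24 hours was 0.099 in log2 units, against 0.017 over all genes. Of the 43, 0 were at least 2-fold lower, against 2.2 percent of all genes tested, so this count carries little weight. At least 2-fold higher were 4 of them, against 3.12 percent. Changes given below are fitted log2 differences at 24 hours.

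Among the processing genes, Cpe and Pam rose. Cpe, a carboxypeptidase that trims basic residues, read 792, 1255 and 3449 in DKK + dox, against 799, 771 and 899 in DKK. It rose by 1.72 (limma, SE 0.19, adjusted p = 0.00246). Pam, the amidating enzyme, read 248, 399 and 518 in DKK + dox, against 271, 224 and 148 in DKK, and rose by 1.55 (limma, SE 0.22, adjusted p = 0.00553). Both genes differed little at 6 hours and diverged upward at 12 and 24 hours, when Trh was low. The convertase gene Pcsk5 read 30.8, 27.6 and 81.1 in DKK + dox, against 31.1, 45.3 and 10.6 in DKK, and it did not pass (limma, adjusted p = 0.154). Pcsk1, the gene for a main convertase of the TRH precursor, was below the low-signal limit on every array. Of 13 processing genes tested, 2 rose and 11 did not pass.

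Of 12 receptor and signaling genes tested, 1 rose and 11 did not pass. Trhr, the TRH receptor gene, read 74.8, 79.9 and 66.4 in DKK + dox, against 116, 40.8 and 75.7 in DKK. The conditions had no common order over time, and Trhr did not pass (limma, adjusted p = 0.938). Gnaq, which encodes the alpha subunit of Gq, read 268, 495 and 486 in DKK + dox, against 230.4, 353 and 285 in DKK, and rose by 0.77 (limma, SE 0.13, adjusted p = 0.0114). Of its 6 other probe sets, 5 were higher and 1 lower in DKK + dox at 24 hours. Among 3 peptidase genes tested, Pgpep1 (pyroglutamyl peptidase) read 172, 112 and 124 in DKK + dox, against 266, 232 and 228 in DKK, and fell by 1.06 (limma, SE 0.24, adjusted p = 0.0281). On this probe set it was lower in DKK + dox at each time. The other probe sets of Pgpep1 differed by -0.29 and -0.45 at 24 hours, and the first of these by 0.0080 at 12 hours. With probe sets averaged, Pgpep1 did not pass (limma, adjusted p = 0.0658). Trhde, the gene for the TRH-degrading ectoenzyme, was below the limit on every array.

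Of 15 genes tested that are known to regulate Trh in the hypothalamus, 2 rose and 2 fell. Stat3, which relays leptin signals in TRH neurons and LIF signals in ESCs, read 647, 362 and 492 in DKK + dox, against 532, 219 and 204 in DKK, and rose by 1.21 (limma, SE 0.13, adjusted p = 0.00231). The other probe sets of Stat3 differed by -0.32, 0.72 and 1.03 at 24 hours. The thyroid hormone receptor gene Thra read 184, 422 and 539 in DKK + dox, against 154, 289.5 and 311 in DKK, and rose by 0.82 (limma, SE 0.14, adjusted p = 0.0117). Its 2 other probe sets differed by 0.035 and 0.14 at 24 hours. Klf10, which encodes a TGF-β-inducible zinc finger factor, read 512, 475 and 393 in DKK + dox, against 613, 699 and 796 in DKK, and fell by 0.999 (limma, SE 0.11, adjusted p = 0.00266). Otp, a homeobox gene of hypothalamic neuroendocrine neurons, read 62.1 to 105 in DKK + dox, against 125 to 134 in DKK, and fell by 0.79 (limma, SE 0.19, adjusted p = 0.0344). On the probe sets used, Klf10 and Otp were lower in DKK + dox at each time, as Trh was, but by less. The other probe set of Otp, which read at most 39.7, differed by 0.0098, 0.15 and -0.32 at 6, 12 and 24 hours. With probe sets averaged, Otp did not pass (limma, adjusted p = 0.133). Modeled as constant over time, 0 of all genes passed in limma (lowest adjusted p = 0.0516; 2927 genes had an unadjusted p under 0.05). With time as a linear term, Cpe, Pam and Klf10 passed and the other 5 pathway genes did not.

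**Figure D4:**
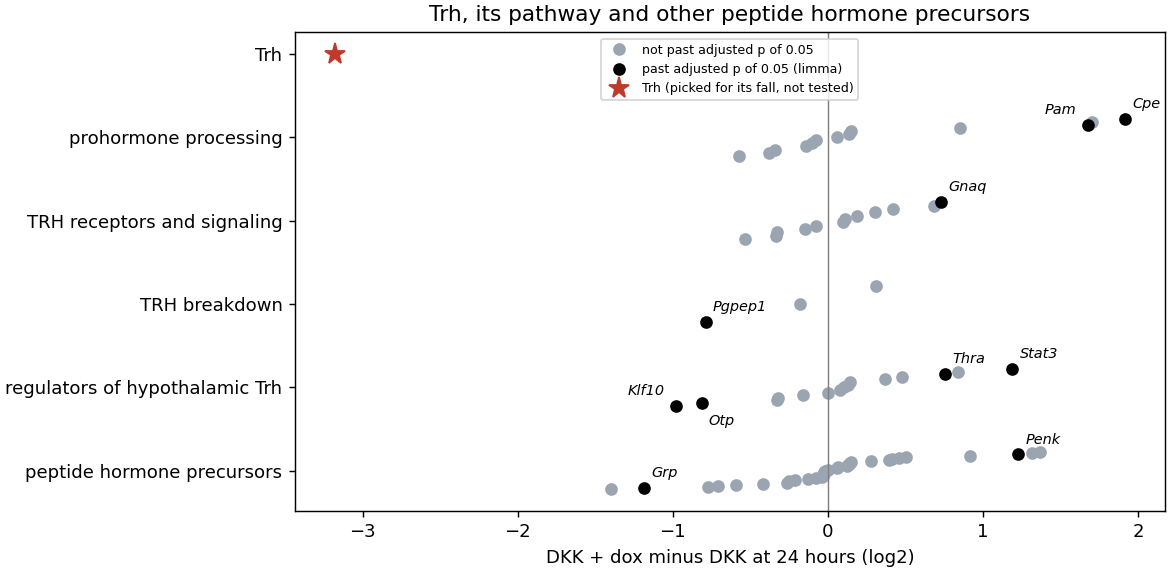
DKK + dox minus DKK at 24 hours (log2) of Trh (star) and of the tested genes in 4 TRH pathway lists and among other peptide hormone precursors, 1 point per gene. Named black points passed an adjusted p of 0.05 in limma; the pathway genes ran between -0.98 (Klf10) and 1.92 (Cpe), and Trh was at -3.18.

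Other peptide hormone precursor genes did not fall as a group either. Of 67 listed, 55 were measured and 20 of these were at or below the low-signal limit on all arrays. Of the 35 tested by limma, 1 rose, 1 fell and 33 did not pass, with a median difference of -0.020 at 24 hours. The shares over all genes tested were 8.32 percent that rose and 6.38 percent that fell. Penk, the enkephalin precursor gene, read 88.3, 220.0 and 569 in DKK + dox, against 69.5, 152 and 231 in DKK, and rose by 1.17 (limma, SE 0.17, adjusted p = 0.00559). The 1 that fell was Grp, the gene for the gastrin-releasing peptide precursor, which read 17.8, 12.9 and 12.4 in DKK + dox, against 21.6, 45.5 and 54.3 in DKK. It entered the test only through the DKK arrays at 12 and 24 hours, its other readings being below the limit, so its call carries no weight.

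The 10 precursors with the highest readings besides Trh were Penk, Nmb, Iapp, Tac1, Ins2, Oxt, Agt, Nmu, Cck and Ucn2, and only Penk passed. Nmb (neuromedin B) and Iapp (amylin) differed by at most 0.32 at any time. The other 7 were each lower in DKK + dox at 6 hours and higher at 12 hours. The median difference over all genes tested was likewise below 0 at 6 hours (-0.037) and above 0 at 12 hours (0.031), and this pattern was not tested. Tac1, Ins2, Oxt, Nmu, Cck and Ucn2 had their highest reading in DKK at 6 hours, and Agt in DKK + dox at 12 hours. Since the 10 precursors were picked by their highest reading, these directions partly follow from the choice. Nmu, the neuromedin U precursor gene, had the lowest difference at 24 hours (-1.40), where DKK + dox was at 1, the lowest value deposited, against 36.2 in DKK. It did not pass (limma, adjusted p = 0.104).

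The genes with a course most like that of Trh, by Pearson correlation of log2 values over the 6 arrays, were Agpat3, Eif1a, Hook2, Rnf207, Spint2, Pltp, Ap3m1, Tpd52, Dusp1 and Ezr (r between 0.990 and 0.998). The arrays share conditions and times, and 334 of 14754 genes (2.26 percent) had an r above 0.9. The likeness was of shape and not of size, since the log2 ranges of the 10 genes were 0.10 to 1.95, against 3.86 for Trh. Ezr, the gene for ezrin, which links actin to the membrane, read 1240, 600.3 and 694 in DKK + dox, against 1759, 2044 and 2348 in DKK. Spint2, the gene for a membrane-bound serine protease inhibitor, read 1987, 1027 and 1078 in DKK + dox, against 2243, 2838 and 3416 in DKK. In both genes, as in Trh, the DKK + dox arrays at 12 and 24 hours were lowest and DKK at 24 hours was highest. Both were picked for their correlation with Trh on these arrays, so this shared order largely follows from the choice.

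By Euclidean distance of centred log2 values, which also weighs the size of change, the nearest genes were Tom1l1, Grb7, Mgst1, Uchl1, Kbtbd11, Slc27a2, Eras, Slc35f2, Ezr and Cldn6. Ezr was the only gene on both lists. Eras, an ESC-expressed Ras family gene, read 1036, 415 and 508 in DKK + dox, against 1609, 1500 and 1835 in DKK. Grb7, a signaling adaptor gene, read 404, 168 and 192 in DKK + dox, against 639, 613 and 920.2 in DKK. At 6 hours their differences were -0.63 for Eras and -0.64 for Grb7, against -0.40 for Trh.

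**Figure D5:**
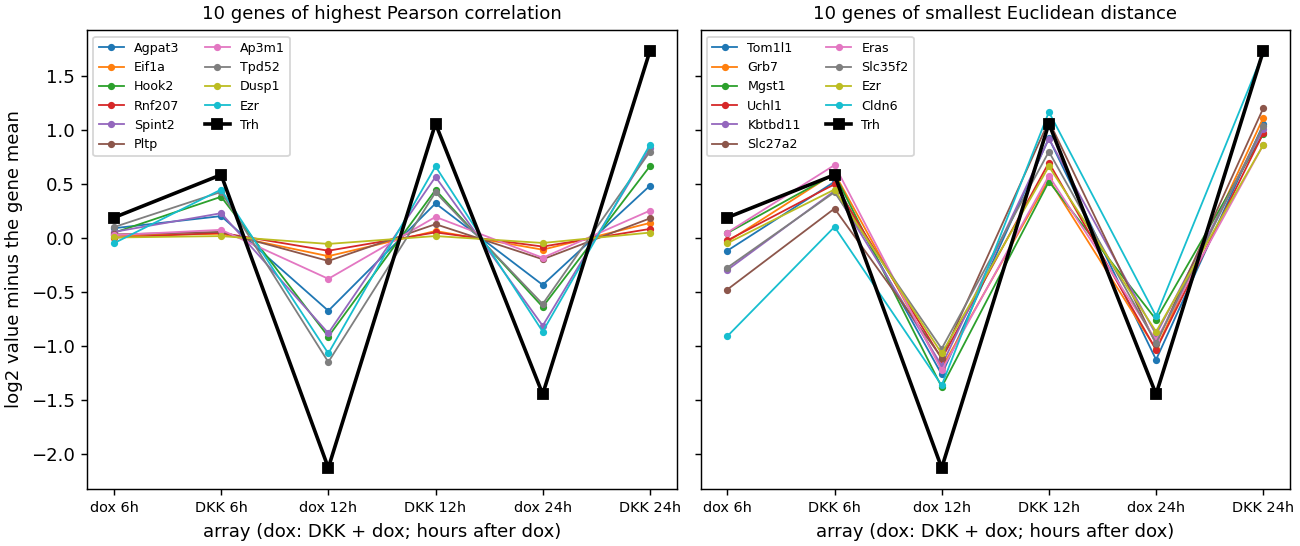
Log2 value minus the mean of the gene on the 6 arrays (dox stands for DKK + dox) for Trh (black) and the 10 genes most like it by Pearson correlation (left) or Euclidean distance (right). The low points fall in DKK + dox at 12 and 24 hours, and the range of Trh was 3.86.

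Neighbours of Trh on chromosome 6 did not share its fall. For the 5 nearest tested genes on each side (gene order of GRCm38.p6), the median log2 difference was -0.078 at 6 hours, -0.16 at 12 hours and 0.017 at 24 hours. Their lowest difference at 24 hours was -0.49, against -3.18 for Trh. By limma, 2 of the 10 rose and 1 fell, against 8.32 percent and 6.38 percent of all genes tested. Rbsn, next to Trh on one side, read 157, 188 and 196 in DKK + dox, against 165, 209.5 and 209.6 in DKK, and did not pass (limma, adjusted p = 0.653). Prickle2, a planar cell polarity gene on the other side, read 72.3, 199 and 252 in DKK + dox, against 42.8, 74.5 and 94.5 in DKK, and rose by 1.51 (limma, SE 0.26, adjusted p = 0.0103). Adamts9, a gene for a secreted metalloprotease, rose by 1.03 (limma, SE 0.22, adjusted p = 0.0238). Mrps25, a mitochondrial ribosomal protein gene, fell by 0.50 (limma, SE 0.093, adjusted p = 0.0141). The others (Ccdc174, Fgd5, Nr2c2, Magi1, Slc25a26 and Lrig1) did not pass.

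Markers of some other cell types differed between the conditions beside Trh. For comparison, 8.32 percent of all genes tested rose and 6.38 percent fell in the limma fit. The marker lists were made with earlier results of these arrays known, so the counts only describe the listed genes. Of 8 mesoderm genes, 5 rose in the limma fit and 0 fell, and their summed intensity was 613, 1634 and 2873 in DKK + dox at the 3 times, against 532, 538 and 439 in DKK. Of 8 parietal endoderm genes, 4 rose and 0 fell, with sums of 5967 in DKK + dox and 3220 in DKK at 24 hours. Of 8 visceral endoderm genes tested, 1 rose, and this gene, Sox17 (393 in DKK + dox and 79.9 in DKK at 24 hours), made up most of the difference between the sums of 1085 and 669 over 10 genes. Of 5 feeder fibroblast genes tested 0 passed, and 7 genes summed to 455 in DKK + dox and 436 in DKK at 24 hours. Of 20 genes of pluripotent cells, 7 fell and 0 rose, with sums of 37002 in DKK + dox and 44564 in DKK at 24 hours. Among 9 genes of hypothalamic progenitors, 6 were lower and 3 higher in DKK + dox at 24 hours. Otp fell and Lhx2 rose (169 in DKK + dox and 55.6 in DKK at 24 hours), so that the sums of 397 and 405 combine opposite changes. Over the low-signal limit were 4, 2 and 3 of these 9 genes in DKK + dox at the 3 times, against 5, 7 and 3 in DKK. Rax and Nkx2-2 were below it on all arrays, and the other 7 exceeded it on at least 1 array. The part of other cells in the Trh values was not tested.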

How the data were processed

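RNA of 6 cultures was measured on Affymetrix MOE430_2.0 arrays. The authors used dChip to normalize and model them (version and model form not given in the sources used here), and deposited linear intensities for the 45037 probe sets read here. The platform annotation gives 1 gene symbol to 34945 of these, several to 932 and none to 9160. Only the first kind was used. By Entrez ID 34741 were found in the RefSeq table of GRCm38.p6. A gene was represented by its probe set of highest mean. Genes not exceeding 37.2 (40th percentile) on any array were dropped, which left 14755. Values were log2(intensity + 20.6), the offset being the 25th percentile.

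Differences were fitted with limma 3.58.1 (R 4.3.3): blocks for the time points, a DKK + dox minus DKK term proportional to hours, an intensity trend in eBayes and Benjamini-Hochberg adjustment. It leaves 2 residual degrees of freedom. Its p-values set the fitted difference against the scatter of the 6 arrays around the trend. No replicate cultures are behind them, and precision is limited by the number of arrays. On simulated data (14755 genes), 42 percent of 100 genes with a log2 change of 1 were found. Of 100 with a change of 2, 85 percent were found, and there were 6 false calls. Differences in those data grew with hours, which is the course that the fit assumes. Recovery of courses with another shape, such as that of Trh, was not tested. Nor was the share of false calls among the 6 arrays.

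Members and lists were chosen with earlier results of these data known. Named genes are Trh, pathway genes that passed or differed at least 2-fold, the 10 precursors of highest reading, the 10 genes most like Trh, 5 neighbours on each side, Cdh1, Ocln, Cldn6 and Cldn7, and the genes next to Trh in the order of differences; further names were chosen after their values were seen. Offset, scaling, filter, probe set, model and left-out times were varied. Plots were made with matplotlib 3.10.9.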

Additional observations from a re-analysis of the deposited data

Results flagged for a closer look

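Agt, the angiotensinogen gene, differed between the conditions in opposite directions at 6 and 24 hours, by over 1.5-fold each time. It read 18.3, 214 and 162 in DKK + dox, against 58.2, 113 and 76.4 in DKK. The log2 difference, DKK + dox minus DKK, was -1.02 at 6 hours and 0.91 at 24 hours. With 1 array per condition and time, the change between the times was not tested.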

How the results depend on the processing

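The differences of Trh between DKK + dox and DKK kept their sign at each time with the offset at the 5th or 50th percentile, quantile normalization and median centring. They moved by less than 0.21, the residual-based spread of a difference between arrays. The DKK increase of Trh between 6 and 12 hours was 0.69 with median centring, against 0.47. Of TRH pathway genes, 5 rose and 3 fell. With probe sets averaged, 3 rose. With a constant difference 0 rose and 0 fell, with linear time 2 rose and 1 fell, and with no intensity trend 1 rose and 1 fell. When the 6 hour pair was left out 1 fell, and when the 24 hour pair was left out 1 rose. Of peptide hormone precursors, 1 rose and 1 fell. The offset at the 5th percentile gave 2 that fell, that at the 50th gave 2 that rose, and median centring gave 2 of each. The filter at the 60th percentile gave 0 that fell, as did omitting the intensity trend. A constant difference, linear time and leaving out the 24 hour pair each gave 0 in both directions. Leaving out the 6 hour pair gave 2 that rose and 0 that fell, and leaving out the 12 hour pair gave 3 that rose. Single calls held in 13 of 14 alternatives for Klf10, 12 for Stat3, 11 for Cpe, Pam and Penk, 9 for Gnaq, Thra and Pgpep1, and 7 for Otp. The call of Grp held in 7 of 13. The cause was not tested. With 10 neighbours on each side, the median difference at 24 hours was -0.0078. Of the 10 genes most like Trh, 0 were among the top 10 with linear intensities, and Dusp1 varied by less over the arrays (0.10) than the median residual SD (0.15). The fit compares DKK + dox with DKK within each time, since time is a block; there are no replicate numbers beyond that by which arrays could be paired.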
